A study of Saccharomyces cerevisiae with 11 samples.

Results

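Trichostatin A (TSA) was added to yeast cells that lacked the histone chaperone Asf1, and transcript levels were set against those of the same deletion strain without the drug. The comparison rests on 2 of the 11 arrays of the series, the untreated asf1 deletion and the asf1 deletion with TSA, chosen by their labels. The strain derives from BY4742, a haploid laboratory strain of budding yeast of mating type alpha that lacks HIS3, LEU2, LYS2 and URA3, and its ASF1 gene was removed by homologous recombination. Cells grew at 30 °C in rich medium with 2% glucose. The treated culture received 10 µM TSA at an optical density (OD600) of 0.5 and was harvested after 1 more hour. The sources used here do not give the density of the untreated culture, or whether it had the same added time. Set beside it are single deletions of CHZ1, NAP1, RTT106 and VPS75 in the same background, each measured without TSA and with the same TSA treatment, and wild type BY4742 with TSA. The title of the untreated chz1 array, chz1-del-glucose, adds a word that no other title holds, though all 11 arrays are listed at 2% glucose. Each condition was measured on 1 array of 1 deletion strain, so the TSA difference has no replicate check, and the 2 repeat measurements of each probe show technical spread only.

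Asf1 carries newly made histones H3 and H4, hands them to the factors that assemble nucleosomes, and presents H3 to the acetyltransferase Rtt109, which modifies lysine 56. Loss of Asf1 is known to activate DNA damage signalling and to weaken silencing in budding yeast. TSA inhibits the zinc-dependent histone deacetylases, among them Rpd3 and Hda1, but not the NAD-dependent Sir2 that silences telomeres and mating loci. The combination therefore alters histone supply and histone deacetylation in the same cells.

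Each array held the deletion RNA (experimental channel, Cy3) beside reference RNA (Cy5). Values are log2 ratios of experimental over reference signal, and a TSA difference is the ratio with TSA minus the ratio without it, in log2 units. By its description the TSA array had a wild type reference, whereas its entry for that channel names the untreated deletion. ASF1 read 2298 in the reference channel and 149.5 in the experimental channel of that array, and 1762.5 and 36.5 on the untreated array, so the reference held cells with ASF1. The alpha-specific genes MF(ALPHA)1, STE3 and SAG1 read between 1475.5 and 22636.5 in all 4 channels. Of 8 genes specific to a cells, the lowest, AGA2, read 9.5 and 23 in the 2 reference channels, near the level of deleted genes. The highest, AGA1, read 590 and 616 there, and STE6 read 292.5 and 368, above the detection limits of 19 and 48.

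The TSA array stood apart by its floor. This floor, the median signal of the deleted URA3, LEU2, HIS3 and LYS2, was 131.25 in the experimental channel, 5.36 times that of the untreated array. The experimental floor was 5.47 times the reference floor there, and 1.72 to 2.90 times on the other 10 arrays. The repeat measurements of its ratios had an SD of 0.186 over detected genes, against 0.0597 on the untreated array and 0.0516 to 0.178 over the other arrays, and the SD that repeats give to a TSA difference was 0.138. Its ratios had a median absolute deviation of 0.299, against 0.193 on the untreated asf1 array and 0.433 on the untreated chz1 array. The part of these features in the results below was not tested. For genes past 1.5-fold that are named here and had a channel below its detection limit, the fold is given with that signal raised to the limit. For lower genes this is a bound within the main processing only. With the experimental channels alone some of them, such as COX2 (0.067) and SSP1 (0.042), lay above 0. For higher genes it is none, because the TSA floor was not removed.

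Few genes differed strongly. Of 6256 genes, 5747 were detected, that is above 2 times the floor in either channel on both arrays, with ASF1 left out. With TSA, 12 genes (0.209%) lay at least 2-fold above their untreated ratio, and 17 (0.296%) lay at least 2-fold below it. At 1.5-fold, 90 genes (1.57%) were higher and 74 (1.29%) lower. Both TSA repeats lay beyond both untreated repeats for all 12 and all 17 of the 2-fold genes, and for 82 of the 90 and 73 of the 74. The share of all detected genes with repeats apart was not counted, so these counts have no background beside them. With signals below the detection limit raised to that limit, 11 of the 12, 15 of the 17, 89 of the 90 and 59 of the 74 stayed past their fold.

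The balance between higher and lower genes depended on the scaling. At 1.5-fold it was 90 to 74 after loess, 274 to 76 with median centring, and 478 to 62 with ratios as the files give them. It was 511 to 63 with the merged log ratios in the authors' deposited table and 521 to 67 in their series matrix. With the 2 arrays scaled to equal spread it was 53 to 101, and with the experimental channels alone 287 to 93. At 2-fold the same settings gave 12 to 17 after loess, 30 to 15, 128 to 17, 159 to 16, 179 to 14, 6 to 23 and 49 to 27. The number of 2-fold lower genes moved less, from 14 to 27 over these settings, than that of 2-fold higher genes, from 6 to 179.

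**Figure D1:**
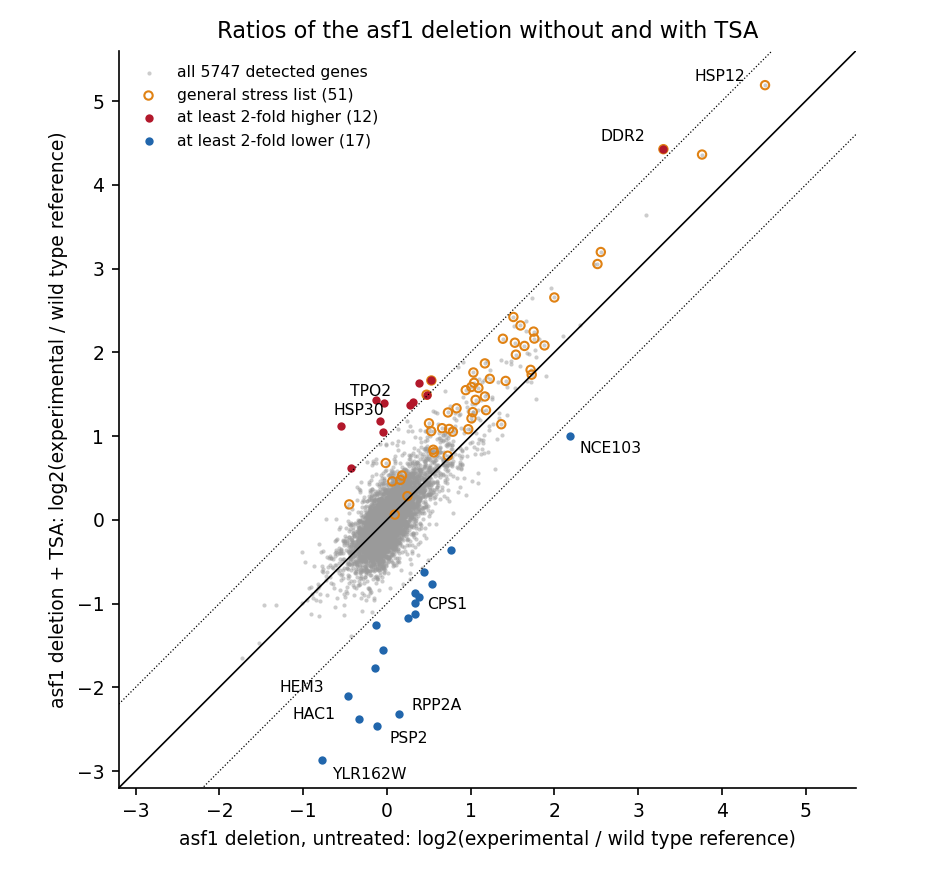
Log2 ratio of experimental over reference signal for the 5747 detected genes, without TSA on the horizontal axis and with TSA on the vertical axis; the solid line marks equal ratios and the dotted lines a 2-fold difference. The 17 lower genes (blue) leave the cloud downwards, while most of the 51 general stress genes (open orange circles) lie above the line after loess, the scaling drawn here.

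HSP30 had the highest TSA difference of the detected genes. It encodes a stress protein of the plasma membrane that restrains the proton pump Pma1. HSP30 (YCR021C) had ratios of −0.52 and −0.57 without TSA and of 1.09 and 1.16 with TSA, a difference of 1.67 (3.17-fold higher). The repeats of the 2 arrays were far apart, and the gene went from below to above the wild type reference. Its experimental signals were 214 and 229 without TSA and 958 and 1106 with it, while the reference signals were 298 and 329 against 379 and 434.

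Of the other named genes, 4 had repeats that lay fairly close together. CIP1 (YPL014W), an inhibitor of the G1 cyclin-dependent kinase, had ratios of 0.43 and 0.33 without TSA and of 1.80 and 1.47 with TSA, a difference of 1.25. SPI1 (YER150W), a cell wall protein induced by weak acids and stationary phase, had ratios of 0.45 and 0.62 without TSA and of 1.60 and 1.72 with it, a difference of 1.13. Both genes started slightly above wild type and stood further above it with TSA. TPS2 (YDR074W), the phosphatase that completes trehalose synthesis, went from 0.46 and 0.49 to 1.40 and 1.58, a difference of 1.02. TPO2 (YGR138C), an exporter of polyamines, went from 0.31 and 0.30 to 1.45 and 1.36, a difference of 1.10. In all 4 genes the repeats of the 2 arrays did not overlap.

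DDR2 and ATO2 were less even between repeats. DDR2 (YOL052C-A), a small protein induced by many stresses, was already high without TSA, at 3.73 and 2.87, and stood at 4.45 and 4.40 with TSA. Its difference of 1.12 came from an experimental change of 0.55 and a reference change of −0.54 in signals scaled to each array's median, and it turned to −0.55 when the arrays were scaled to equal spread. ATO2 (YNR002C), a membrane protein of the acetate and ammonia transporter family, went from 0.27 and 0.28 to 1.86 and 0.88, a difference of 1.10. The repeats of ATO2 with TSA differed by nearly as much as the difference itself.

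DDI2 and 4 genes without a standard name complete the 12. DDI2 (YNL335W) encodes a cyanamide hydratase induced by DNA damage and has a near-identical copy, DDI3, that a probe may not tell apart. Its ratios were −0.09 and −0.07 without TSA and 2.00 and 0.37 with TSA, and its experimental signals with TSA were 887 and 184. The untreated signals of 43 and 39 lay below the detection limit of 49, and the second TSA signal lay below its limit of 262.5. With the untreated signals raised to 49, DDI2 was 2.21-fold higher by the mean of these uneven repeats. The untreated signals of YPL238C, YOR199W and YGR045C were below 49 too. Raised to it, these genes were 2.44-fold, 2.38-fold and 1.99-fold higher, so YGR045C does not pass 2-fold in this way. The higher TSA floor was not removed, so these folds are no lower bounds. Under other processing the lowest differences were 0.44 for DDI2, 0.38 for YPL238C, 0.86 for YOR199W and 0.42 for YGR045C. Of the deleted markers, LEU2 stood at 0.87, URA3 at 0.31, LYS2 at 0.05 and HIS3 at −0.01. YPR123C, measured on both arrays, had a difference of 1.05. Of the 12 genes, 5 had TSA repeats more than 0.5 apart, namely DDI2, ATO2, YPL238C, YOR199W and YGR045C, and the largest gap was 2.37.

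**Figure D2:**
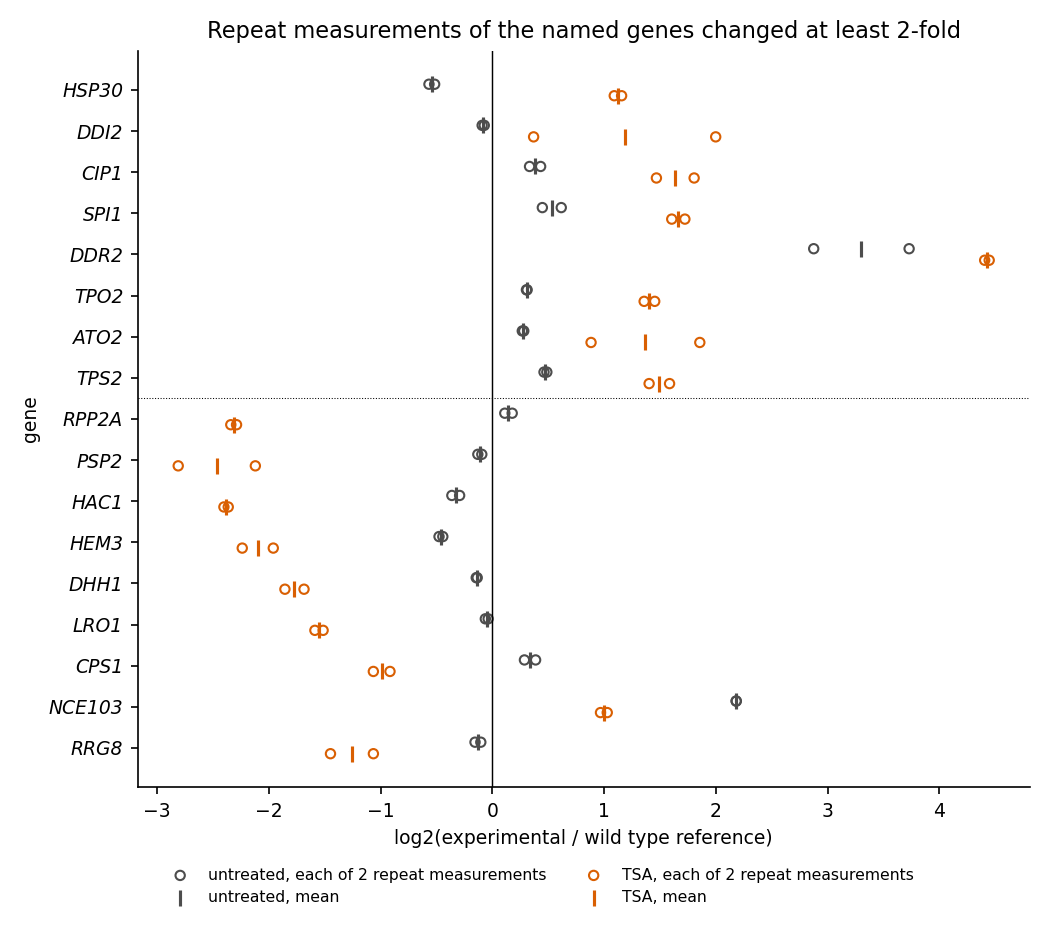
Log2 ratios of the 8 named genes at least 2-fold higher and the 9 at least 2-fold lower with TSA; open circles are the 2 repeat measurements of each array and ticks their means. Untreated (grey) and TSA (orange) repeats do not overlap for any of the 17 genes, but the TSA repeats of DDI2, ATO2 and PSP2 are widely spread.

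The largest differences were downward and fell on genes of unrelated function. RPP2A (YOL039W), an acidic protein of the ribosomal stalk, had ratios of 0.18 and 0.11 without TSA and of −2.34 and −2.29 with TSA, a difference of −2.46 (5.50-fold lower). HAC1 (YFL031W), the transcription factor of the unfolded protein response, went from −0.29 and −0.36 to −2.36 and −2.40, a difference of −2.06. PSP2 (YML017W), an RNA-binding protein of the cytoplasm, went from −0.13 and −0.10 to −2.12 and −2.81. These genes were near the wild type level without TSA and far below it with TSA, with repeats that did not overlap. The PSP2 signals with TSA, 166 and 84, were below the detection limit of 262.5, so PSP2 is given as at least 2.78-fold lower.

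HEM3, DHH1 and LRO1 came next among genes with a standard name. HEM3 (YDL205C), the porphobilinogen deaminase of heme synthesis, went from −0.44 and −0.48 to −1.96 and −2.24, a difference of −1.64. DHH1 (YDL160C), the RNA helicase that promotes decapping of mRNA, went from −0.14 and −0.14 to −1.69 and −1.86, a difference of −1.63. LRO1 (YNR008W), which makes triacylglycerol from phospholipids, went from −0.04 and −0.06 to −1.52 and −1.59, a difference of −1.50. In all of them the 2 TSA repeats lay close together and well below the untreated pair.

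Smaller differences were found for CPS1, NCE103 and RRG8. CPS1 (YJL172W), a vacuolar carboxypeptidase of nitrogen supply, went from 0.39 and 0.29 to −1.07 and −0.92, a difference of −1.33. NCE103 (YNL036W), the carbonic anhydrase, stood at 2.18 and 2.18 without TSA and at 0.97 and 1.03 with TSA. It was the only one of the 17 that the deletion itself had raised at least 2-fold over wild type, and the difference of −1.18 left it near 2-fold above. RRG8 (YPR116W), a mitochondrial protein needed for respiratory growth, went from −0.16 and −0.10 to −1.45 and −1.07, a difference of −1.13. The other 8 of the 17 had no standard name, among them YLR162W, which went from −0.71 and −0.85 to −2.82 and −2.91, and 6 reading frames at chromosome ends that are described further on.

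The lower ratios lay in the experimental channel. With signals scaled to each array's median, the experimental change of the 17 genes ran from −2.57 to −0.95, and their reference change from −0.51 to 0.08. RPP2A read 38805 and 36080 in the experimental channel without TSA and 8881 and 7522 with it. Its reference signals were 29774 and 28679 on the untreated array and 43042 and 35749 on the TSA array. HAC1 read 11959 and 10941 without TSA and 2991 and 2718 with it, beside reference signals of 13364 to 16733 on the 2 arrays. For both genes the treated deletion cells were low and the reference was not.

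The same genes were displaced on the array of wild type cells with TSA, in the other channel. As deposited columns are read here, wild type cells with TSA over untreated wild type gave ratios of 2.04 for RPP2A, 2.11 for PSP2, 2.57 for HAC1, 1.56 for HEM3, 1.63 for DHH1 and 1.69 for LRO1. There the reference channel was the low one: HAC1 read 9345 and 8929 in the experimental channel and 1588 and 1460 in the reference channel. Over the 17 genes the wild type ratios ran from −0.32 to 2.97 with a median of 1.26, and 14 of the 17 were at least 1.5-fold higher, as were 1.01% of all detected genes. Of the 74 genes at least 1.5-fold lower in asf1, 68 lay above 0 there, as did 48.9% of all detected genes. Over all 5747 genes the TSA difference had a Pearson correlation of −0.46 with the wild type ratios. With the TSA differences of the other deletions it ran from −0.20 to 0.13. The wild type array holds no deleted gene, so its direction rests on the dye labels alone and is only likely. Turned, each sign that involves it reverses, and its low channel would be that of the treated cells. The sources used here do not say whether these arrays shared a reference extract, and the part of a shared extract in these values was not tested.

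**Figure D3:**
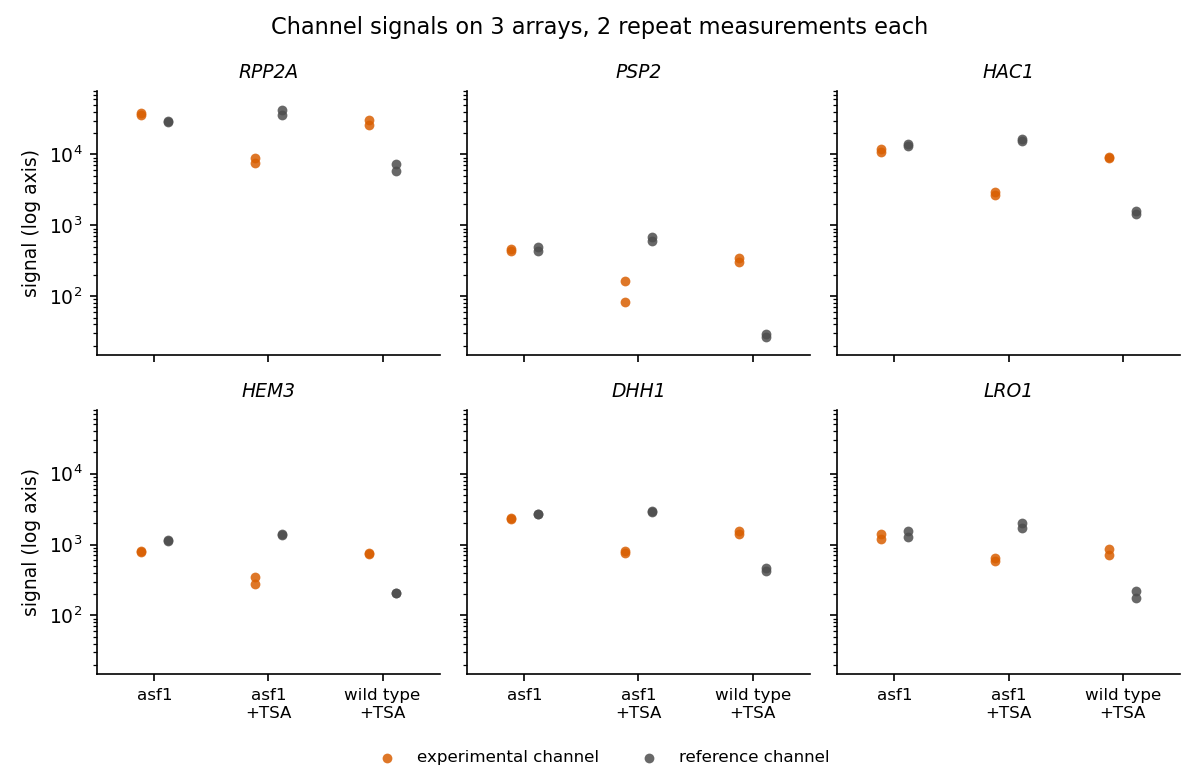
Signals of 6 lowered genes in the experimental (orange) and reference (grey) channels of 3 arrays on a log axis, 2 repeat measurements each. On the asf1 array with TSA the experimental signals are low, and on the wild type array with TSA the reference signals are low, while both channels are close on the untreated asf1 array.

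General stress genes had the highest median of the 35 lists. The list holds 51 detected targets of Msn2 and Msn4, the transcription factors of the environmental stress response. With TSA 18 of the 51 (35.3%, against 1.57% of all genes) were at least 1.5-fold higher and 0 lower. Above 0 lay 49, where 48.9% of all genes did. The median difference was 0.45, against −0.01 over all genes. The list was already raised by the deletion, with a median ratio to wild type of 1.04 without TSA and 1.55 with it, and members at least 2-fold above wild type went from 30 to 41. The median change was 0.42 in the experimental channel and −0.08 in the reference channel. When the arrays were scaled to equal spread, the list's median difference turned to −0.12, with 19 members above 0 and 32 below, 3 at least 1.5-fold higher and 8 lower. The direction of this list therefore depends on how the spread of the 2 arrays is treated.

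The list holds 14 genes of trehalose and glycogen metabolism, a group named after its values were seen. Their differences ran from −0.23 to 1.02 with a median of 0.45, and 5 were at least 1.5-fold higher. TSL1, a regulatory subunit of trehalose synthase, went from 1.38 and 1.39 without TSA to 2.16 and 2.16 with it. GSY2, a glycogen synthase, went from 1.03 and 1.04 to 1.80 and 1.71, and GPH1, the glycogen phosphorylase, from 2.54 and 2.57 to 3.19 and 3.21. In these 3 genes no repeats overlapped. With the arrays scaled to equal spread, however, GPH1 turned to −0.61, and TSL1 and GSY2 did not stay past 1.5-fold. TPS1, the trehalose-phosphate synthase, had a difference of 0.65, and TPS2, described above, was the highest of the group. The branching enzyme GLC3 was at −0.23 and the debranching enzyme GDB1 at 0.04. The trehalases ATH1 and NTH1 were at 0.24 and 0.30, and the synthase subunit TPS3 at 0.32. Outside this group SOL4, a 6-phosphogluconolactonase, had a difference of 0.91, and the peroxidase GPX1 was at −0.03.

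The stress transcripts farthest above wild type depended on the scaling. HSP12, a small membrane-protecting protein, had ratios of 4.51 and 4.52 without TSA and 5.19 and 5.19 with TSA. Its experimental signals were 7182 and 6979 without TSA and 13159 and 14079 with it, beside reference signals of 265 to 364. YGP1, a secreted glycoprotein of starved cells, went from 3.75 and 3.77 to 4.39 and 4.33. The repeats of both genes were tight and did not overlap, yet HSP12 turned to −1.45 and YGP1 to −1.18 with the arrays scaled to equal spread. In the other deletions the median TSA difference of this list was 0.42 in chz1, −0.12 in nap1, 0.18 in rtt106 and 0.32 in vps75, and its median ratio on the wild type array was −0.02. The chz1 pair differed widely over all detected genes, with 903 at least 1.5-fold higher and 772 lower. These counts were 26 and 111 in nap1, 21 and 62 in rtt106, and 54 and 23 in vps75.

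Heat shock chaperones differed less. Of 34 detected genes, 4 (11.8%, against 1.57% of all genes) were at least 1.5-fold higher and 0 lower, and the median difference was 0.19. The 4 were HSP104, the disaggregase (0.69), SSA4, an inducible Hsp70 (0.68), HSP42, a small heat shock protein (0.63), and BTN2, which sequesters misfolded protein (0.63). HSP104 and HSP42 stand in the general stress list too. HSP104 had ratios of 0.00 and −0.03 without TSA and of 0.67 and 0.68 with TSA, so it left the wild type level only with the drug. BTN2 stayed below wild type on both arrays, at −0.96 and −1.07 without TSA and −0.36 and −0.41 with it. Below 0 lay 5 of the 34, the lowest being the Hsp110 SSE1 at −0.18, while the Hsp90 HSP82 was at 0.50 and the Hsp70 SSA1 at 0.33.

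Oxidative stress and cell wall genes lay mostly above 0, where 48.9% of all genes did. Of 24 genes listed for Yap1 and oxidative stress, 19 lay above 0, and the median was 0.23. Their median change was 0.14 in the experimental channel and −0.08 in the reference channel, where 22 lay below 0. Only 1 was at least 1.5-fold higher, against 1.57% of all genes. It was the cytosolic catalase CTT1 (0.61), which stands in the general stress list too. Of 52 cell wall genes 43 lay above 0, with a median of 0.18. Their median change was 0.05 in the experimental channel, where 31 lay above 0, and −0.09 in the reference channel, where 41 lay below 0. Of the 52, 3 (5.77%) were at least 1.5-fold higher and 1 (1.92%) lower. The higher ones were SPI1 and the wall proteins CWP1 (0.66) and PST1 (0.61), and the lower was CCW12 (−0.63), a major structural mannoprotein. CCW12 read 60247 and 56810 without TSA and 40337 and 39434 with it, and its ratio crossed the wild type level from 0.64 and 0.52 to −0.02 and −0.08.

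Transporters lay on both sides, where 1.57% of all genes were at least 1.5-fold higher and 1.29% lower. Of 20 genes of drug efflux and Pdr1 control, TPO4, a polyamine exporter (0.78), and PDR12, the exporter of weak organic acids (0.65), were at least 1.5-fold higher. PDR5, the main multidrug pump, was lower, at −0.30 and −0.29 without TSA and −1.10 and −1.08 with TSA, a difference of −0.80. Among 12 detected hexose transporters 3 were higher and 0 lower, HXT7 (0.80), HXT4 (0.77) and HXT6 (0.59). HXT6 and HXT7 are near-identical high-affinity transporters that a probe may not separate, so they may be 1 measurement, and HXT7 turned to −0.22 and HXT6 to −0.26 with the arrays scaled to equal spread. The low-affinity HXT1 had a difference of −0.20.

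Ribosome biogenesis had the lowest median among the 35 lists, apart from a mitochondrially encoded group added after its values were seen. Of 96 detected genes, 92 lay below 0, where 51.1% of all genes did, and the median difference was −0.25. At 1.5-fold 0 were higher, and 7 (7.29%, against 1.29% of all genes) were lower. They were the helicases ROK1 (−0.68) and MAK5, the small subunit factor UTP23 (−0.65), the RNA polymerase I subunit RPA34 (−0.62), the H/ACA particle protein NHP2 (−0.60), RPF1 and RRP8. RPA34 went from −0.08 and −0.03 to −0.68 and −0.68, and NHP2 from −0.04 and −0.03 to −0.66 and −0.61, without overlap. The list's median ratio to wild type went from −0.07 without TSA to −0.30 with it, and its median stayed between −0.34 and −0.18 under the processing alternatives. In the other strains the median TSA difference was −0.96 in chz1, 0.11 in nap1, −0.04 in rtt106 and −0.16 in vps75.

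Ribosomal protein genes did not share that shift in their ratios. The 137 detected genes had a median of −0.01. In the experimental channel their median change was −0.24, with 123 below 0, and in the reference channel −0.13, with 120 below 0. For ribosome biogenesis these medians were −0.30 and −0.02. At least 1.5-fold lower were 2 of the 137 (1.46%, against 1.29% of all genes), RPP2A and RPL15A. RPL15A, of the large subunit, went from 0.14 and 0.24 to −0.77 and −0.77, a difference of −0.96. The remaining members lay within 1.5-fold. HAC1 likewise stood alone among 20 genes of the unfolded protein response. Its list had a median of 0.03 and no other member past 1.5-fold, and the Hac1 targets PDI1 and KAR2, which fold proteins in the endoplasmic reticulum, were at 0.18 and 0.17.

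Few transcripts of the chromatin machinery itself passed 1.5-fold, as did few of all detected genes (1.57% higher and 1.29% lower). Of the 11 histone genes 0 passed 1.5-fold, with a median of 0.07 and a range of −0.20 to 0.27. The extremes were HHT1, encoding H3, and HTA1, encoding H2A. The 21 histone chaperone and H3 lysine 56 acetylation genes had 0 past 1.5-fold and a median of 0.00, and RTT109 was at −0.05. The 27 genes of histone deacetylases and their partners had 0 past 1.5-fold and a median of −0.07. Among them HOS2, a class I deacetylase, had TSA repeats of 1.95 and −1.66, so no value can be given to it from these arrays. It counts among the 27 by its mean only.

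Of 22 histone acetyltransferase genes, ADA2 alone was past 1.5-fold. ADA2, the adaptor subunit of the SAGA complex, went from −0.03 and 0.10 to −0.87 and −0.76. Its experimental signals with TSA, 243 and 237, were below the detection limit, so it was at least 1.67-fold lower. The 21 silencing and telomere genes had 0 past 1.5-fold, but 20 lay below 0, where 51.1% of all genes did, and the median was −0.18. The lowest was EST2, the telomerase reverse transcriptase, at −0.49, and SIR4 and YKU70 were at −0.24 and −0.28. The silencing deacetylase SIR2 was the exception, at 0.06. The list's median was 0.01 with ratios as the files give them and 0.05 with the authors' deposited merged ratios. In the experimental channel alone 11 of the 21 lay below 0 and 10 above, with a median change of −0.04. In the reference channel the median change was −0.03.

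**Figure D4:**
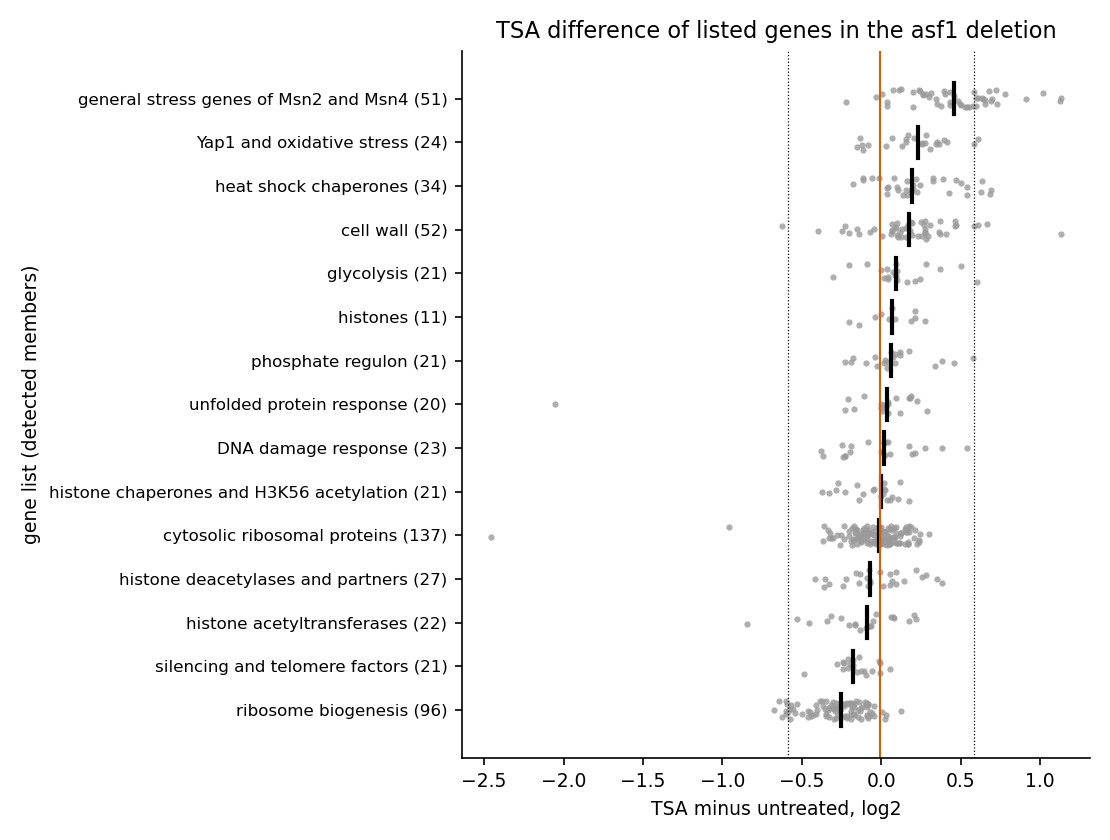
TSA difference (log2) of the detected members of 15 gene lists in the asf1 deletion; each dot is a gene, black bars are list medians, the orange line is the median of all genes and dotted lines mark 1.5-fold. Of these lists, general stress lies highest with a median of 0.45 (−0.12 with the arrays scaled to equal spread) and ribosome biogenesis lowest with −0.25, while HAC1 and RPP2A lie far below the rest of their lists.

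Genes at chromosome ends were compared because the title of the series concerns telomeric silencing. The 10 outermost genes of each of 32 arms gave 249 detected genes, whose median difference of 0.01 lay 0.02 above that of the other genes. The shift was 0.20 in the authors' deposited series matrix, and between −0.01 and 0.14 under the other alternatives. Yet 15 of the 249 (6.02%) were at least 1.5-fold lower, against 1.07% of the other genes, and 4 (1.61%) were higher, against 1.56%. The lower genes lay at the very ends, 14 of 120 among the 5 outermost and 1 of 129 among ranks 6 to 10.

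The 15 reading frames had differences of −1.46 to −0.60. Without TSA their ratios to wild type ran from −0.51 to 0.54 with a median of 0.33, and with TSA from −1.18 to −0.38 with a median of −0.63. YFL064C, for example, went from 0.51 and 0.57 to −0.68 and −0.85, and YLR464W from 0.38 and 0.28 to −0.86 and −0.90. The other frames past 2-fold were YER189W, YEL075C, YEL076C-A and YLR462W, and in YER189W and YEL075C the TSA signals were below the detection limit, so they were at least 1.94-fold and 1.78-fold lower. The TSA signal of YAR073W, another of the 15, was also below that limit and allows no fold. Many frames at chromosome ends are copies of repeated elements, so these probes may share transcripts, and the 15 are not 15 independent measurements. The difference of all 15 in other strains was also taken. They were lower with TSA in all of nap1, with a median of −0.53, and rtt106, with −0.73. They were higher in all of chz1, the pair with the most genes past 1.5-fold, with a median of 1.62. In vps75 14 of the 15 lay below 0, with a median of −0.26. On the wild type array their median ratio was 0.69 as read here, with the opposite sign if that array is turned.

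The genes that ASF1 loss raises most were set side by side on the 2 arrays. Without TSA 103 genes (1.79%) were at least 2-fold above wild type, and with TSA 145. Of the 103, 84 stayed past 2-fold with TSA, and 61 of the 145 were below 2-fold without it. The ratios spread more widely on the TSA array (median absolute deviation 0.299 against 0.193), and these counts were not taken at equal spread. HUG1, a checkpoint-induced inhibitor of ribonucleotide reductase, had ratios of 2.81 and 3.39 without TSA and of 3.60 and 3.67 with TSA, but its difference of 0.54 became −0.94 with the arrays scaled to equal spread. RNR3, the damage-induced subunit of that enzyme, stayed level, at 1.71 and 1.74 without TSA and 1.61 and 1.67 with it. RNR2 and RNR4, its small subunits, parted, with differences of 0.38 and −0.36. Of the 23 DNA damage genes 0 were past 1.5-fold in either direction, and the median was 0.02. The checkpoint kinase gene RAD53, named here after its value was seen, went from 0.18 and 0.20 to 1.03 and 0.82, a difference of 0.74.

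Most of the remaining lists lay near the median of all genes. Of 21 phosphate genes 0 passed 1.5-fold, and the acid phosphatase PHO5, a classical chromatin-regulated gene, had a difference of 0.33 and stood near wild type, at −0.05 and −0.04, with TSA. The 18 detected genes repressed by Ume6 and the deacetylase Rpd3, many of them meiotic, had 0 past 1.5-fold and a median of 0.01, which was 0.42 with ratios as the files give them. Among 38 ergosterol and hypoxic genes HES1 (0.84) and PDR11 (0.63), which take part in sterol transport, were higher, and the fatty acid desaturase OLE1 (−0.68) lower. The HES1 repeats with TSA were 1.81 and −0.46, and its value was −0.27 from the second repeat alone, so it rests on 1 spot. PNC1, the nicotinamidase that supports Sir2, went from 1.06 and 1.02 to 1.63 and 1.64.

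While 1.57% of all genes were at least 1.5-fold higher and 1.29% lower, several lists held 0 genes past 1.5-fold in either direction. They were the proteasome (36 genes, median 0.02), mitochondrial ribosomal proteins (65, 0.00), respiratory chain (39, 0.06), amino acid synthesis (47, −0.01), sulfate assimilation (30, 0.02), purine and one-carbon genes (23, −0.04), the iron regulon (28, 0.05), copper and zinc genes (21, 0.05), cyclins and cell cycle regulators (39, −0.07), glucose-repressed genes (28, −0.04), and pheromone response (21, 0.04). Nitrogen catabolite genes had 1 lower of 27, which was CPS1, and glycolysis 1 higher of 21, which was the glyceraldehyde-phosphate dehydrogenase TDH1 at 0.60. The 24 diploid and sporulation genes, 9 of them detected in both channels, had a median of 0.01. Of these CDA1, a chitin deacetylase, and SSP1 were lower, SSP1 by 1.18-fold with its signal raised to the detection limit. With the experimental channels alone CDA1 and SSP1 stood at 0.28 and 0.04. The list's median change in that channel was 0.45, against 0.02 over all genes. Above 0 there lay 22 of the 24, as did 3046 of all 5747 genes.

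Whether a TSA difference was particular to the asf1 deletion was tested by limma on the 5 paired strain differences, with asf1 against the mean of the chz1, nap1, rtt106 and vps75 deletions. The spread came from those 4 strains, and the asf1 difference was assumed to vary like theirs. At an adjusted p of 0.05, 0 genes of 5911 (0.0%) were higher and 0 (0.0%) lower, and 145 had an unadjusted p under 0.05 by limma, 72 higher and 73 lower. The smallest adjusted p by limma was 0.125, for RPP2A, whose difference minus the mean of the others was −2.45 (SE 0.19). RPP2A differences in the other strains lay between −0.09 and 0.15. HAC1 followed at −2.01 (SE 0.20, limma adjusted p = 0.140), with the other strains between −0.19 and 0.07.

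On the high side the same test put YNL034W first, at 1.93 (SE 0.18, limma adjusted p = 0.140). This gene of unknown function was not detected without TSA, and its TSA repeats of 1.00 and 2.65 disagreed. The fitted values of YNL034W and DDI2 rest on untreated signals below the detection limit and are no bounds. DDI2 followed, at 1.40 with a limma adjusted p of 0.307, the same adjusted p as LRO1 at −1.63. The outcome turned on the chz1 pair. Without that pair some genes were called, among them RPP2A, PSP2, YNL034W, HAC1, HEM3, DDI2 and LRO1. The spread then came from nap1, rtt106 and vps75 alone, whose arrays had repeat SDs of 0.0516 to 0.0755. On the asf1 TSA array the repeat SD was 0.186, so the assumption that asf1 varies like them did not hold for technical spread. The part of this wider spread in the calls was not tested. DHH1 differed widely among the other strains, from −0.84 in rtt106 to 1.44 in chz1, and so did TPO2, from −0.99 in nap1 to 2.24 in chz1.

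**Figure D5:**
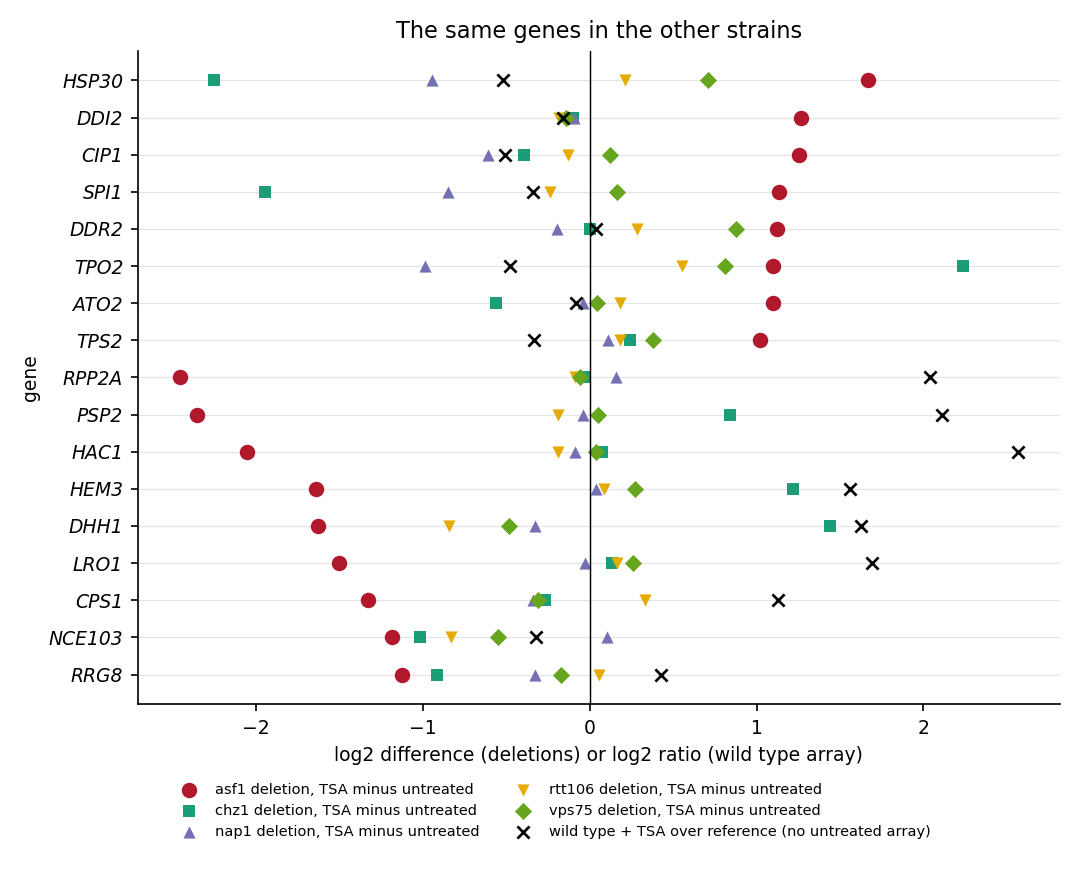
TSA difference of the 17 named genes in the asf1 deletion (red circles) and in the 4 other deletions (coloured symbols), and their ratio on the wild type array with TSA (crosses), in log2. RPP2A, HAC1 and LRO1 lie near 0 in the 4 other deletions, at −1.50 or below in asf1 and above 1.5 on the wild type array as read here, whereas the stress genes spread over the strains.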

How the data were processed

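Per the labels, total RNA was hybridised to 2-colour Agilent whole-genome yeast arrays with no dye swap. The authors deposited, per array, the intensity of 2 repeat measurements of each probe in both channels, merged intensities, a log10 ratio and a signed rounded fold change (a score here), and a series matrix of log2 values. The sources used here do not give the scanner, background correction or scaling, and the files hold no background column. The deposited log10 ratio runs reference over experimental on both asf1 arrays and was turned.

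An offset of 50 was added to each signal, and loess was applied to the log2 ratios (span 0.3, 4 iterations; limma 3.58.1, R 4.3.3) in each repeat, and the 2 repeats were averaged. A gene counted as detected above 2 times the median signal of URA3, LEU2, HIS3 and LYS2. Signals below that limit were raised to it, which gives bounds for lower genes only, and only within this processing. With 1 array per condition no test was possible between them, and folds of 2 and 1.5 were used. The contrast with the other strains was fitted by lmFit and eBayes on 5 paired differences, with Benjamini-Hochberg adjustment at 0.05. It covered genes detected on at least 5 of the 10 deletion arrays. The fit was also run on simulated data, and the outcome of that run is not given here. Strain pairs the arrays by design. The nap1 array without TSA was turned because NAP1 was low in its reference column. Of 6256 genes, 5756 were matched to RefSeq (R64) for symbols. Precision is limited by the number of arrays. The lowest correlation between any pair of arrays was −0.15.

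The genes compared and the 35 lists were chosen with earlier results of these data known. Named genes were up to 12 per direction with a standard name, past 2-fold and with repeats apart, up to 4 members of each list farthest in the direction of its median and up to 2 against it, and 5 per direction from the fit. Genes outside this rule were added as illustrations after their values were seen. Python 3.11.15, pandas 2.3.3 and matplotlib 3.10.9 made the tables and figures.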

Additional observations from a re-analysis of the deposited data

Results flagged for a closer look

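For 5 genes the TSA difference in the asf1 deletion had the opposite sign to that in all 4 other deletions. HEM3 was at −1.64 in asf1 and between 0.04 and 1.22 in the others, and the difference between them had a limma adjusted p of 0.999. DDI2 was at 1.27 in asf1 and between −0.19 and −0.09 in the others (limma adjusted p = 0.307), from TSA repeats that disagreed. BTN2 was at 0.63 in asf1 and between −4.26 and −0.21 in the others (limma adjusted p = 0.999). YGR045C was at 1.09 in asf1 and between −0.14 and −0.01 in the others (limma adjusted p = 0.764), again with TSA repeats that disagreed, at 1.67 and 0.43. The untreated signals of DDI2 and YGR045C were below the detection limit. With these signals raised to it, the genes were 2.21-fold and 1.99-fold higher in asf1, which are no lower bounds given the higher TSA floor. YPR123C was at 1.05 in asf1 and between −0.83 and −0.12 in the others (limma adjusted p = 0.999). None of these differences passed the test over all 5911 genes with all 5 strains.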

How the results depend on the processing

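Over 13 alternatives, 914 of 925 values of the 72 genes past 1.5-fold that are named or used as illustrations kept their sign, and of 28 such genes past 2-fold 324 of 357 values stayed past it. The count of genes at least 2-fold higher was 30 with median centring, 128 with ratios as given, 23 with no offset, 159 with the authors' merged ratios, 179 in the series matrix, 6 with equal spread, 49 with the experimental channels alone, 32 from the first repeat alone and 27 with the floor subtracted, which was chosen after seeing the data. That of genes at least 2-fold lower was 29 with no offset, 27 with the experimental channels alone and 32 with the floor subtracted. At 1.5-fold, genes higher numbered 274, 478, 511, 521, 53, 287, 143 and 155 in the same order without the offset setting, and genes lower 134 with no offset, 122 from the first repeat and 151 with the floor subtracted. The cause of these changes was not tested. The subtelomeric shift was 0.202 in the series matrix.

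The medians of 29 of 37 lists changed sign under some alternative, and 3 of these were 0.1 or more from 0. They were the silencing list (0.00874 with ratios as given, 0.052 with merged ratios), the stress list (−0.12 with equal spread) and the mitochondrially encoded list (0.012 with the experimental channels alone). Of the genes past 1.5-fold, DDR2 (−0.55), HXT7 (−0.22), HXT6 (−0.26), HSP12 (−1.45), YGP1 (−1.18) and GPH1 (−0.61) changed sign with equal spread, CDA1 (0.28), SSP1 (0.042), VAR1 (0.037) and COX2 (0.067) with the experimental channels alone, and HES1 (−0.27) from the second repeat alone. In the fit against the other strains, leaving out the chz1 pair gave 3 higher and 5 lower genes, and leaving out the others 0. The fit with no replicate block (strain not used for pairing) gave 3 lower, and the wild type array as a further comparator 1 higher, or 0 with that array turned.

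Genes with signals near the floor of 131.25 on the TSA array, where 5311 genes were detected in the experimental channel against 5827 without TSA, have values that the floor limits.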

Other observations

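Transcripts encoded by the mitochondrial genome, a group chosen after its values were seen, had a median TSA difference of −0.48. Of 21 detected genes 20 lay below 0, where 51.1% of all genes did. At least 1.5-fold lower were 6 (28.6%, against 1.29% of all genes). VAR1, of the mitochondrial ribosome, and ATP6, of ATP synthase, both stood at −0.65, and COX1 and COB, of the respiratory chain, at −0.25 and −0.21. In SCEI, Q0182 and COX2 the TSA signals were below the detection limit. With these raised to the limit, none of the genes stayed past 1.5-fold, and the differences were −0.41, 0.21 and −0.27. With the experimental channels alone COX2 stood at 0.067 and VAR1 at 0.037. The group was above wild type on both arrays, with a median ratio of 0.64 without TSA and 0.30 with it. In the experimental channel alone its median change was 0.01, and in the reference channel 0.04.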
